A study of Mus musculus with 90 samples.

Results

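The genes described here encode the proteasome and its regulators, together with a pair of ubiquitin ligases of muscle. They were chosen by name: every symbol that begins with Psma, Psmb, Psmc, Psmd, Psme or Psmf and ends in a number, plus Fbxo32 and Trim63, which gave 46 of 55011 gene symbols in the count tables. By role they were 7 alpha ring subunits, 4 beta ring subunits without a catalytic site (Psmb1 to Psmb4) and the constitutive catalytic subunits Psmb5, Psmb6 and Psmb7. Psmb8, Psmb9 and Psmb10 are the inducible counterparts of these catalytic subunits. The 19S cap gave 6 ATPases and 14 other genes, with assembly chaperones among them. The rest were the activators Psme1 to Psme4 with the inhibitor Psmf1, the tissue-restricted subunits Psma8 and Psmb11, and the ligases.

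The study sequenced polyA RNA from 90 mouse libraries in 29 groups. In 44 libraries the material was 1000 mesenchymal stromal cells of hindlimb muscle (MmSCs, sorted as PDGFRa+ Sca1+ CD31- CD45-), and in the others 2 ng of whole-tissue RNA. MmSCs came from mice 1 day after acute exercise (AEX), after exercise training (EXT) or from sedentary mice (SED). WT mice of the AEX and EXT sets were 8 to 10 weeks old. Cultured MmSCs received 25 µM Yoda1, an agonist of the mechanically gated channel Piezo1. In the 2 h set, 2 libraries of Yoda1 stood against 3 of vehicle labelled 0 h, so that time in culture and the agonist cannot be told apart; these cells carried the label of Pdgfra-Cre with intact Piezo1. In the other set 3 unstimulated libraries, labelled vehicle, stood against 3 at 4 h and 3 at 6 h, with no genotype given. Mutants were Pdgfra-Cre Piezo1 f/f (named FL, and KO in the tibialis anterior set), and their WT carried the same Cre with Piezo1 +/+. FL and WT mice gave MmSCs (SED, AEX day 1, and day 1 after cardiotoxin), tibialis anterior muscle (TA) on days 1, 3 and 7 after cardiotoxin (CTX, a venom toxin that destroys muscle fibres), perfused hearts 3 days after CTX in skeletal muscle, and uninjured quadriceps, heart and liver of SED mice from separate cohorts. The Cre acts in PDGFRa-expressing cells, so whole tissue keeps the Piezo1 transcripts of all its other cells. Each group had 3 libraries, but Yoda1 at 2 h had 2, and the liver groups and TA at day 1 had 4.

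Total counts ran from 1806248 to 10258234 per MmSC library, from 4051973 to 10226407 per muscle library and from 27461930 to 38376123 per heart or liver library. MmSC libraries held stromal markers and few white blood cell markers, whose 14 genes summed to between 4 and 38 CPM (counts per 1000000 of the library's scaled total). Piezo1 itself was not called lower in any of the 10 mutant comparisons, with log2 differences from -0.29 in liver to 0.54 in SED MmSCs. Counts were given per gene symbol only, so whether part of the gene was lost in the mutants could not be tested. In the MmSC cohort with both genotypes and AEX, titles and library names disagree about the replicate in all 12 samples and about the group in 4 of them. Genotype and treatment labels go with the library names. Count columns were therefore tied by their names to groups only, and the replicates are called a, b and c. No label says that replicates are separate animals, so p-values measure the spread between these samples, which may be technical.

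The proteasome degrades proteins tagged with ubiquitin: rings of alpha subunits gate a chamber of beta subunits, and the 19S cap recognises, unfolds and feeds in the substrate. Under interferon, newly made particles take up Psmb8, Psmb9 and Psmb10 in place of Psmb5, Psmb6 and Psmb7, which gives the immunoproteasome that shapes the peptides presented on MHC class I; Psme1 and Psme2 together form its activator PA28. In skeletal muscle Fbxo32 (atrogin-1) and Trim63 (MuRF1) are ligases known to rise when fibres waste.

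The genes of the inducible subunits lie apart: Psmb8 (ENSMUSG00000024338.15) at 34197721 to 34201454 and Psmb9 (ENSMUSG00000096727.3) at 34181987 to 34187764 on chromosome 17 of mm10, within the MHC region, and Psmb10 (ENSMUSG00000031897.9) at 105935735 to 105938444 on chromosome 8. Psmb9 is read on the opposite strand to Tap1, a peptide transporter gene, and their RefSeq starts are 226 bases apart. Promoters, from 250 bases before to 50 after the start (RefSeq, GRCm38.p6), matched 38 of the 46 members, and Psmb7, Fbxo32 and 6 others are named only. The promoters of 6 members on which the results turn are shown, with a factor's motif in capitals. The motifs searched, on both strands, were GAAA and GAAA 2 bases apart for interferon response elements, TTC and GAA 3 bases apart (TTCNNNGAA) or 4 bases apart for STAT sites, TGACNNNGC for antioxidant response elements, CCAAT for NF-Y and GTAAACA for FOXO factors.
Psmb8: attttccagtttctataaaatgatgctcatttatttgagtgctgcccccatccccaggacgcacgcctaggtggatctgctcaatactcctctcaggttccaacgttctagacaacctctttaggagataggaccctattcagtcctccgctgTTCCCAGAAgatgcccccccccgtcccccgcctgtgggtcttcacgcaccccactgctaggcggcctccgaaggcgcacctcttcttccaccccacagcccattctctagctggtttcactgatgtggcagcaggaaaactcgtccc
Psmb9: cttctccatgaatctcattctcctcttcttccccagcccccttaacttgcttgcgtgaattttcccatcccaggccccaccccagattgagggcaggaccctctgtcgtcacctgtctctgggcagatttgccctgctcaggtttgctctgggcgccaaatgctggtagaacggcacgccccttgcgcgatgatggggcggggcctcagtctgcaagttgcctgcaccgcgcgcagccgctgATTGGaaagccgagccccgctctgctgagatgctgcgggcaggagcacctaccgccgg
Psmb10: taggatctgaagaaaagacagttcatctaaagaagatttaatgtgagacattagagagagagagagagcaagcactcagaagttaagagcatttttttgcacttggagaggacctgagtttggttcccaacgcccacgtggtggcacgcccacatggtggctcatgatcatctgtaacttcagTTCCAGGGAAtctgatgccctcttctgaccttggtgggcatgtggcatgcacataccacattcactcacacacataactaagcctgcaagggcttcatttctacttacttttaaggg
Psme1: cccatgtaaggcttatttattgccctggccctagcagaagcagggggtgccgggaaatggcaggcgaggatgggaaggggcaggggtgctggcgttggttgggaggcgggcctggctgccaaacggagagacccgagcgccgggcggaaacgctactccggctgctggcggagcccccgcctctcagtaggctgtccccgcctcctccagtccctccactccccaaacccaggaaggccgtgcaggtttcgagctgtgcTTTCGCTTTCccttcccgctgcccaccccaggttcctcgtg
Psmb5: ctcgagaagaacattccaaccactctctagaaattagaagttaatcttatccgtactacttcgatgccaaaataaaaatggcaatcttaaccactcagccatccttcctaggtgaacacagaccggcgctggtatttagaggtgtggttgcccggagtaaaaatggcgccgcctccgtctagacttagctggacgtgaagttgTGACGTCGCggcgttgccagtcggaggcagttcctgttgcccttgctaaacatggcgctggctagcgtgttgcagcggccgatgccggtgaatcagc
Trim63: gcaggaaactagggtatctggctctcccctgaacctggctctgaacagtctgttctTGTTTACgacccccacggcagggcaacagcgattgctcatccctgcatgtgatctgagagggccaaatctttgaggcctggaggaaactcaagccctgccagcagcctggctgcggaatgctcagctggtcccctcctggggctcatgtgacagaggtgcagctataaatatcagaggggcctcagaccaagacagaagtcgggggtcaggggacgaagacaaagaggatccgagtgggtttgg
In the Psmb8 promoter (chr17:34197945-34198244, plus strand) the capitals mark a match to TTCNNNGAA that begins 97 bases before the start. The Psmb9 window (chr17:34187281-34187580, minus strand) held CCAAT on the opposite strand 8 bases before the start, and none of the interferon or STAT motifs; it shares 275 bases with that of Tap1. In Psmb10 (chr8:105938343-105938642, minus strand) the capitals mark TTC and GAA 4 bases apart, 67 bases before the start. Psme1 (chr14:55578244-55578543, plus strand) had an interferon response element read from the other strand, 10 bases into the transcript. Psmb5 (chr14:54617946-54618245, minus strand) had an antioxidant response element 47 bases before the start, and Trim63 (chr4:134314870-134315169, plus strand) a FOXO motif on the other strand 194 bases before the start. Of all 32851 promoters of the same length, 8.30% held TTCNNNGAA, 6.95% the form with 4 bases between, 3.44% the interferon response element, 12.4% the antioxidant response element, 37.4% CCAAT and 3.65% the FOXO motif. Among members, TTCNNNGAA was also in Psmd2, the interferon response element in Psmb3, Psmd4 and Psmd9, the antioxidant response element in Psmb6, Psmc6, Psmd9, Psmd12 and Psme4, and CCAAT in 14 members. These are matches of letters, not sites shown to be bound. The gene spans of Psmb8, Psmb9 and Psme1 in GENCODE M21 begin upstream of their windows, and sequence before those windows was not searched.

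Inducible and constitutive subunits were set against each other within each library as the summed counts per kb of Psmb8, Psmb9 and Psmb10 over those of Psmb5, Psmb6 and Psmb7, a ratio that needs no scaling between libraries. Constitutive transcripts exceeded inducible ones in all 90 libraries. The inducible share of both sums was lowest in uninjured quadriceps, at 3.5, 3.4 and 3.1% in FL muscle, against 3.4, 3.3 and 3.8% in WT muscle. Liver lay far higher, with 14.1, 20.3, 18.2 and 19.8% in FL livers, against 18.2, 19.5, 14.7 and 17.96% in WT livers. Freshly sorted MmSCs ranged from 10.1% in an FL AEX library to 23.3% in a WT AEX library, and cultured MmSCs from 3.2 to 10.9%. Within the constitutive trio Psmb6 had the most counts per kb in every group: in WT quadriceps it averaged 323 CPM per kb, against 114 CPM per kb for Psmb5 and 93.0 CPM per kb for Psmb7. Psmb9 was the lowest of the inducible trio per kb in every group. The strand setting of the counting was not known here, so reads of Psmb9 and its antisense neighbour Tap1 cannot be told apart, nor can those of Psmd9 and Hpd. Antisense genes overlap the spans of other members as well, where the same limit may hold. Among these are Psmb8 (Gm20496), Psmb10 (Gm16156), Psmb7 (Nek6), Psme1 (Emc9), Psmc3 (Slc39a13), Psmd3 (Gm12356), Psmd13 (Sirt3) and Fbxo32 (Gm15943).

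**Figure D1:**
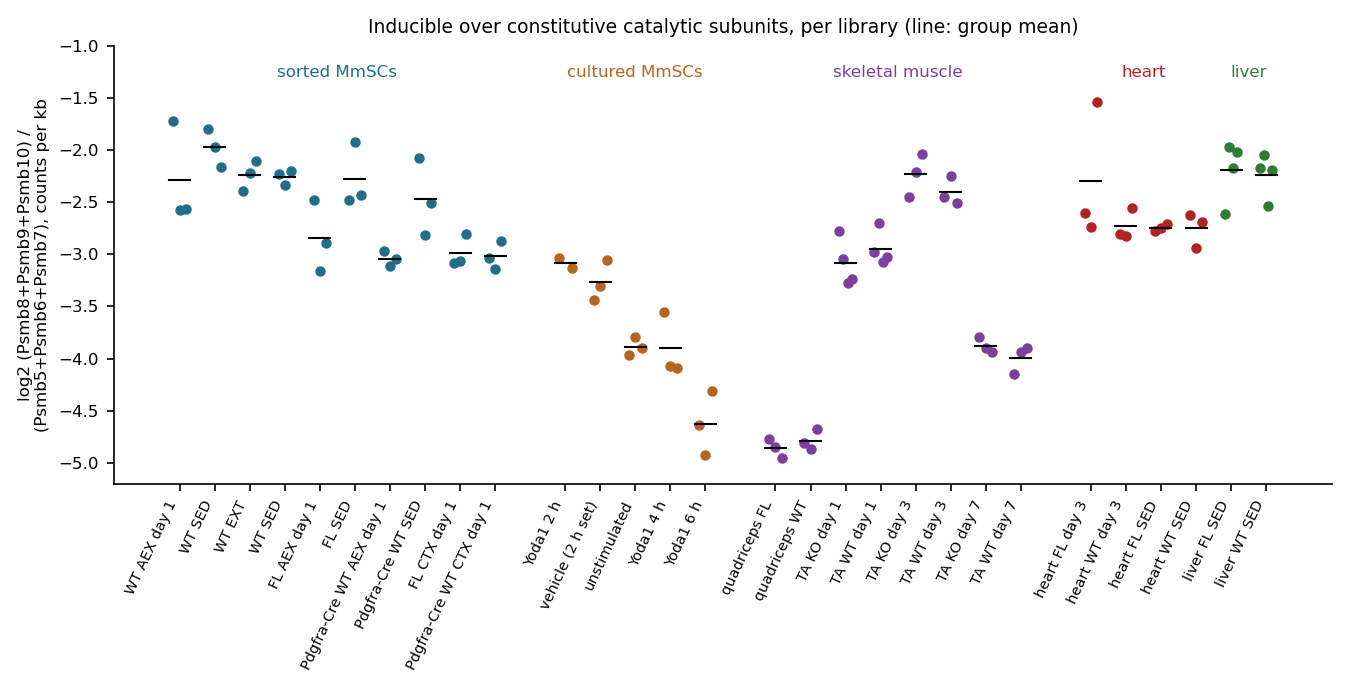
Log2 of the summed counts per kb of Psmb8, Psmb9 and Psmb10 over Psmb5, Psmb6 and Psmb7, 1 point per library, with a line at the group mean; the first WT SED group belongs to AEX and the second to EXT. Among TA groups day 3 lies highest, and of all groups quadriceps lies lowest (-4.86 in FL and -4.78 in WT on average), and the Yoda1 libraries at 6 h lie below the unstimulated ones.

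In injured TA muscle the inducible subunits and PA28 genes fell between days 3 and 7 in both genotypes. By day 3 all 5 of these genes had risen in KO muscle, and Psmb9 and Psme1 in WT muscle. In KO muscle Psmb8 stood at 79.1, 69.2, 55.99 and 74.5 CPM at day 1, 108, 196 and 144 CPM at day 3 and 47.4, 49.8 and 41.2 CPM at day 7. WT muscle had 86.2, 102, 81.8 and 66.5 CPM of Psmb8 at day 1, 112, 124 and 103 CPM at day 3 and 35.7, 40.5 and 43.9 CPM at day 7. No library of day 7 reached any library of day 1 or day 3, and day 3 lay above day 1. A gene is called here where its adjusted p in edgeR's quasi-likelihood test (Benjamini-Hochberg over all genes tested) was under 0.05, and ± after a log2 fold change is its standard error. Psmb8 rose from day 1 to day 3 in KO muscle (log2 1.11 ± 0.17, edgeR adjusted p = 1.05e-05); in WT muscle the change missed the threshold (log2 0.43 ± 0.17, edgeR adjusted p = 0.0647). It fell by day 7 in both (log2 -1.70 ± 0.19, edgeR adjusted p = 5.77e-08 in KO; log2 -1.50 ± 0.19, edgeR adjusted p = 9.16e-07 in WT). In these whole-tissue values, fewer cells of a type and less RNA per cell cannot be told apart.

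Psmb9, whose product replaces that of Psmb6, measured 18.5, 13.2, 15.5 and 10.5 CPM at day 1, 30.2, 45.8 and 43.7 CPM at day 3 and 12.7, 14.1 and 16.2 CPM at day 7 in KO muscle. In WT muscle it measured 14.7, 23.8, 13.4 and 14.3 CPM at day 1, 33.6, 39.6 and 28.7 CPM at day 3 and 8.68, 9.67 and 15.8 CPM at day 7. Day 3 stood clear of both other days in each genotype, and the rise from day 1 passed the test in KO (log2 1.47 ± 0.23, edgeR adjusted p = 1.64e-05) and in WT (log2 1.04 ± 0.23, edgeR adjusted p = 0.00152). Psmb10, the counterpart of Psmb7, moved less: 33.9, 44.3, 25.97 and 36.01 CPM at day 1, 39.9, 65.1 and 55.8 CPM at day 3 and 32.3, 28.5 and 20.7 CPM at day 7 in KO muscle. In WT muscle Psmb10 had 41.1, 42.2, 35.9 and 39.1 CPM at day 1, 48.9, 51.2 and 43.8 CPM at day 3 and 26.9, 32.9 and 25.6 CPM at day 7. The KO libraries of days 1 and 3 overlapped for Psmb10, though its rise was called (log2 0.62 ± 0.18, edgeR adjusted p = 0.00716), and the call did not hold in every fit that left out 1 library. The fall to day 7 was called in both genotypes (log2 -0.99 in KO and -0.75 in WT, with edgeR adjusted p = 0.000179 and 0.00331).

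Among the constitutive partners, Psmb5 and Psmb7 rose after day 3 and Psmb6 was not called. Psmb5, the subunit with chymotrypsin-like activity, had 140.5, 173, 135 and 181 CPM at day 1, 137, 118 and 144 CPM at day 3 and 199.6, 221 and 195 CPM at day 7 in KO muscle, and WT muscle had 186, 173, 176 and 157 CPM at day 1, 159.8, 162 and 151 CPM at day 3 and 207, 208 and 219 CPM at day 7. All day 7 libraries exceeded all libraries of days 1 and 3. Psmb5 rose from day 3 to day 7 in KO (log2 0.63 ± 0.13, edgeR adjusted p = 0.000312) and WT (log2 0.42 ± 0.13, edgeR adjusted p = 0.0116), as did Psmb7 (log2 0.79 ± 0.12, edgeR adjusted p = 5.09e-06 in KO; log2 0.49 ± 0.12, edgeR adjusted p = 0.00179 in WT). Psmb6 was not called between days 3 and 7 in KO (log2 -0.04, edgeR adjusted p = 0.852) or WT (log2 0.26, edgeR adjusted p = 0.223); in KO muscle at day 3 it read 337, 591 and 352 CPM, with replicate 2 apart.

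**Figure D2:**
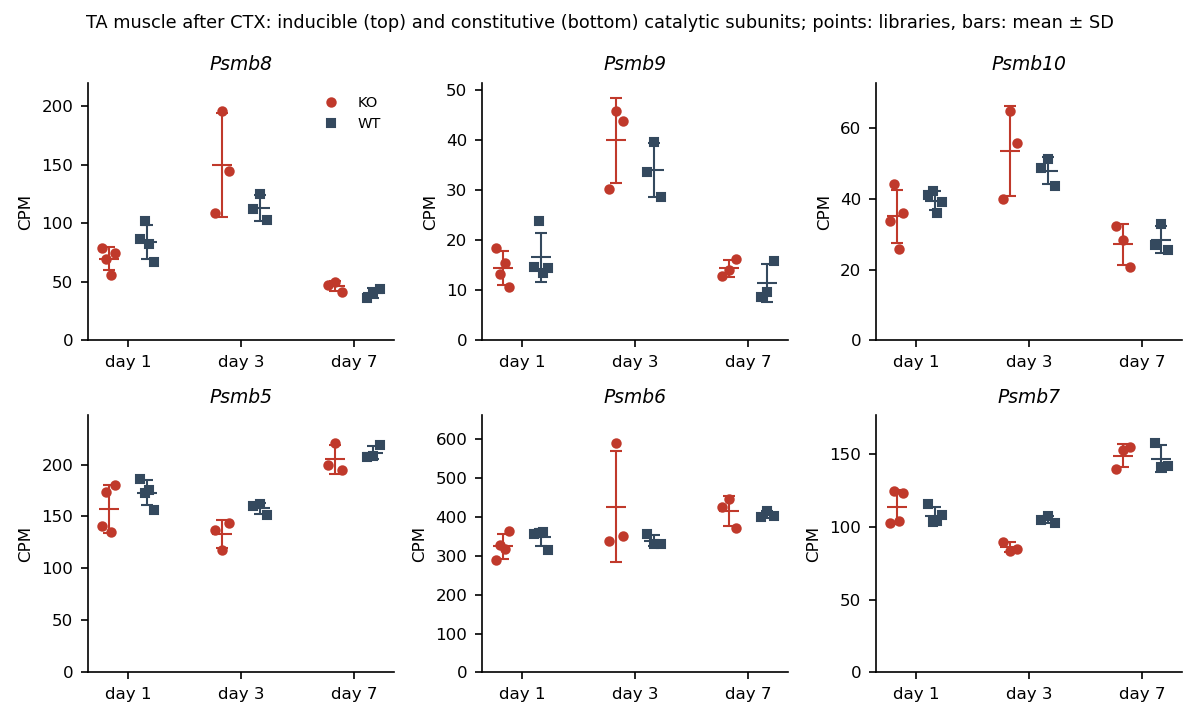
CPM of the inducible subunits (top) and their constitutive partners (bottom) in TA muscle on days 1, 3 and 7 after CTX, KO left of WT at each day, with points for libraries and bars for mean ± SD (n = 4 each at day 1, 3 each later). Psmb8 and Psmb9 peak at day 3, while Psmb5 and Psmb7 are highest at day 7.

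Together the catalytic genes moved the inducible share to 15.5, 17.8 and 19.5% in KO and 15.5, 17.4 and 14.9% in WT muscle at day 3. At day 1 the shares were 12.7, 10.8, 9.4 and 9.6% in KO and 11.2, 13.3, 10.6 and 10.9% in WT. At day 7 they were 6.7, 6.3 and 6.1% in KO and 5.3, 6.1 and 6.3% in WT. The 3 days did not overlap in either genotype. On the log2 scale the ratio at day 3 minus that at day 1 was 0.85 in KO and 0.54 in WT, and day 7 minus day 3 was -1.64 in KO and -1.59 in WT. At each day the ratios of KO and WT libraries overlapped, with a KO minus WT difference of -0.14 at day 1, 0.17 at day 3 and 0.12 at day 7. Psmb8 over Psmb5 alone differed more, by 0.62 at day 3 and 0.25 at day 7, with every KO library above every WT library on both days, and its day 3 minus day 1 difference in KO was 1.31.

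Psme1 and Psme2 form the PA28 ring. Psme2 had 54.2, 53.6, 71.3 and 58.9 CPM at day 1, 71.8, 152 and 90.99 CPM at day 3 and 41.5, 49.4 and 40.9 CPM at day 7 in KO muscle. In WT muscle the values were 57.1, 72.8, 59.5 and 59.02 CPM at day 1, 76.9, 84.2 and 67.3 CPM at day 3 and 40.5, 45.8 and 49.1 CPM at day 7. Day 7 lay below both other days in each genotype, and the fall from day 3 was called for Psme2 (log2 -1.26 ± 0.20, edgeR adjusted p = 9.42e-06 in KO; log2 -0.75 ± 0.20, edgeR adjusted p = 0.00332 in WT). The fall was called for Psme1 too (log2 -0.57 ± 0.14, edgeR adjusted p = 0.00121 in KO; log2 -0.61 ± 0.14, edgeR adjusted p = 0.0009 in WT). Other activators differed from PA28: Psme4 (PA200) fell from day 1 to day 3 in both genotypes (log2 -0.90 in KO and -0.45 in WT) and rose to day 7 (log2 0.56 in KO and 0.66 in WT). Psme3 (PA28 gamma, a nuclear activator) fell from day 1 to day 3 in WT (log2 -0.70, edgeR adjusted p = 0.00518) and from day 3 to day 7 in KO (log2 -0.78, edgeR adjusted p = 0.0016). Psmf1, which encodes the inhibitor PI31, was not called between any of these days.

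The 19S cap accounted for most of the falls between days 1 and 3. Psmd11, a scaffold subunit of the lid, had 239, 288, 307 and 316 CPM at day 1 and 114, 149 and 149 CPM at day 3 in KO muscle, against 324, 299, 305 and 272 CPM at day 1 and 125, 163 and 134 CPM at day 3 in WT muscle. Every library of day 3 lay below every library of day 1 (log2 -1.06 ± 0.14, edgeR adjusted p = 1.05e-06 in KO; log2 -1.09 ± 0.14, edgeR adjusted p = 2.04e-06 in WT). Psmd8, also of the lid, fell likewise (log2 -1.04 ± 0.12, edgeR adjusted p = 2.68e-07 in KO; log2 -0.81 ± 0.12, edgeR adjusted p = 2.27e-05 in WT). Psmd3 and Psmd7 were lower at day 3 in KO by log2 -0.82 and -0.55, and in WT by log2 -0.65 and -0.65. Of the 14 non-ATPase genes, 7 fell and 2 rose in KO, and 7 fell and 0 rose in WT. Psmd10 was 1 of those that rose in KO (log2 0.87 ± 0.19, edgeR adjusted p = 0.000595). Like Psmd5 and Psmd9, it encodes an assembly chaperone (gankyrin) rather than a subunit of the finished cap.

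Counted over all 45 members tested in TA, 9 rose and 12 fell from day 1 to day 3 in KO muscle (median log2 0.01), where 22% of all genes tested rose and 22.6% fell. In WT muscle 2 rose and 15 fell (median log2 -0.16), against 14.1% and 12.6% of all genes. From day 3 to day 7, 9 rose and 14 fell in KO (25.8% and 27% of all genes, 52.7% in all), and 9 rose and 7 fell in WT (20.1% and 22.4% of all genes). In WT by day 3 the members that fell make up a larger share than among all genes and those that rose a smaller one, and the other shares lie nearer the background. Leaving out 1 library took the WT count from day 1 to day 3 to as few as 8 of 17, without WT day 3 replicate 3. It became 9 without replicate 2 and 11 without replicate 1 of that day or replicate 1 of day 1. Calls that held in every such fit were 15 of 21 in KO and 7 of 17 in WT for day 3 against day 1, and 18 of 23 and 13 of 16 for day 7 against day 3. Psmb8, Psmb9, Psmb10, Psme1 and Psme2 were among the 13 in WT.

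Markers of other cells moved with these days. The summed level of 14 white blood cell markers was 2555 to 3706 CPM in KO and 2833 to 4119 CPM in WT at day 1, 7730 to 8267 CPM in KO and 6326 to 8118 CPM in WT at day 3, and 957 to 1545 CPM in KO and 840 to 1468 CPM in WT at day 7. The 10 muscle fibre markers summed to 99883 to 168955 CPM in KO and 105360 to 134036 CPM in WT at day 1, to 5583 to 18759 CPM in KO and 44835 to 79714 CPM in WT at day 3, and to 243760 to 324797 CPM in KO and 272654 to 335344 CPM in WT at day 7. The part of either cell type in the inducible subunits' course was not tested.

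Of 15 genes of MHC class I antigen processing, 8 rose and 0 fell from day 1 to day 3 in KO, and 6 rose and 0 fell in WT, where 22% of all genes rose in KO and 14.1% in WT. Their examples are B2m, the light chain of class I molecules (log2 1.39 in KO, 1.18 in WT), and Tap1 (log2 1.16 in KO, 0.80 in WT). From day 3 to day 7, 12 of the 15 fell in KO and 13 in WT, where 27% of all genes fell in KO and 22.4% in WT. Of 20 interferon genes tested, 12 rose and 1 fell in KO by day 3, and 6 rose and 1 fell in WT. Shuttles and deubiquitinases of the proteasome fell more often than they rose by day 3, with 7 of 12 lower and 2 higher in KO and 6 lower and 0 higher in WT. Of all genes, 22.6% fell by day 3 in KO and 12.6% in WT. Nfe2l1 (Nrf1), which drives proteasome genes when the proteasome is blocked, fell from day 1 to day 3 (log2 -1.90 ± 0.21, edgeR adjusted p = 1.04e-07 in KO; log2 -0.75 ± 0.20, edgeR adjusted p = 0.00697 in WT) and rose to day 7 (log2 2.42 in KO and 1.44 in WT).

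Between genotypes in TA muscle, the members that differed were the ligases at day 3. Fbxo32 had 34.4, 53.8 and 65.5 CPM in KO muscle, against 174, 122 and 92.3 CPM in WT muscle at day 3. Trim63 had 23.7, 65.98 and 80.1 CPM in KO muscle, against 117, 111 and 103 CPM in WT muscle. No KO library reached a WT library for either ligase. Both were called lower in KO (Fbxo32 log2 -1.33 ± 0.31, edgeR adjusted p = 0.00972; Trim63 log2 -0.95 ± 0.27, edgeR adjusted p = 0.0272), 2 of 45 members, where 8.98% of all genes were called, 2.61% higher and 6.37% lower. Neither call held in every fit that left out 1 library. Fbxo32 lost it without KO replicate 2, with edgeR adjusted p from 0.00851 to 0.0597 over the 6 fits, and Trim63 kept it in 1 of 6 (0.00443 to 0.0767). The count of members called was 0 without KO replicate 2, 6 without KO replicate 1, 5 without KO replicate 3 and 1 without any single WT library. Without KO replicate 1, 5 of the 6 were higher in KO (Psma3, Psmb2, Psmb8, Psme2 and Psme3), and Fbxo32 was lower. Without KO replicate 3, Psmb2, Psmd5 and Psme3 were higher in KO and both ligases were lower.

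Muscle fibre markers differed in the same direction: 10 of 10 were called lower in KO at day 3, with a median log2 of -2.03 and summed levels of 5583, 18470 and 18759 CPM in KO, against 44835, 48571 and 79714 CPM in WT. Their part in the ligases' difference was not tested. Of 20 other atrophy and FOXO genes, 4 were lower in KO and 0 higher, among them Klf15, a glucocorticoid-induced factor (log2 -2.16, edgeR adjusted p = 0.00921), and Trim54 and Trim55, the sister genes of Trim63 (log2 -1.25 and -0.87). Nfe2l1 was lower too (log2 -1.06 ± 0.21, edgeR adjusted p = 0.00247).

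At day 1 the order was the opposite for Fbxo32, with 191, 324, 187 and 303 CPM in KO, against 127, 99.1, 169 and 168 CPM in WT. All KO libraries exceeded all WT libraries, but the difference was not called (log2 0.84 ± 0.26, edgeR adjusted p = 0.571). At day 7 Fbxo32 had 57.9, 87.4 and 49.7 CPM in KO, against 125, 64.5 and 101 CPM in WT, with overlap and no call (log2 -0.58 ± 0.31, edgeR adjusted p = 1). The joint test of genotype by day over the 3 days called Fbxo32 (difference at day 3 minus difference at day 1: log2 -2.16; edgeR adjusted p = 0.00774), the 1 member of 45 it called, where 3.89% of all genes were called. That call held in all 20 fits without 1 library, with edgeR adjusted p from 0.00565 to 0.0373. Without KO day 3 replicate 3 the count of members called became 4. Trim63 missed the threshold in that test (log2 -1.34, edgeR adjusted p = 0.0682).

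Over time Trim63 stood at 437, 475, 320.5 and 354 CPM at day 1, 23.7, 65.98 and 80.1 CPM at day 3 and 118, 127 and 104 CPM at day 7 in KO muscle. In WT muscle it stood at 288, 247, 375 and 299.6 CPM at day 1, 117, 111 and 103 CPM at day 3 and 131, 132 and 102 CPM at day 7. Day 1 was highest in both genotypes. The fall to day 3 was called in KO (log2 -2.79 ± 0.27, edgeR adjusted p = 2.72e-08) and in WT (log2 -1.46 ± 0.25, edgeR adjusted p = 0.000156), and the rise to day 7 was called in KO (log2 1.03 ± 0.27, edgeR adjusted p = 0.00251) and not in WT (log2 0.14 ± 0.26, edgeR adjusted p = 0.696). Fbxo32 fell from day 1 to day 3 in KO (log2 -2.29 ± 0.30, edgeR adjusted p = 3.71e-06) and was not called in WT (log2 -0.12 ± 0.28, edgeR adjusted p = 0.795).

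No member was called between KO and WT at day 1 or at day 7 by edgeR, nor by DESeq2. At day 1 0.0774% of all genes were called, and 3 of 45 members and 5.76% of all genes had an unadjusted p under 0.05. At day 7 0% of all genes were called, and 0 members and 4.76% of all genes had such a p. The inducible subunits did not differ by test at day 3, where Psmb8 had log2 0.41 (edgeR adjusted p = 0.171), Psmb9 log2 0.24 (edgeR adjusted p = 0.609) and Psmb10 log2 0.17 (edgeR adjusted p = 0.66). Psme2 stood at log2 0.47 (edgeR adjusted p = 0.138). In the fit without KO day 3 replicate 1, the shallowest TA library (4051973 counts), Psmb8 and Psme2 were called higher in KO.

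**Figure D3:**
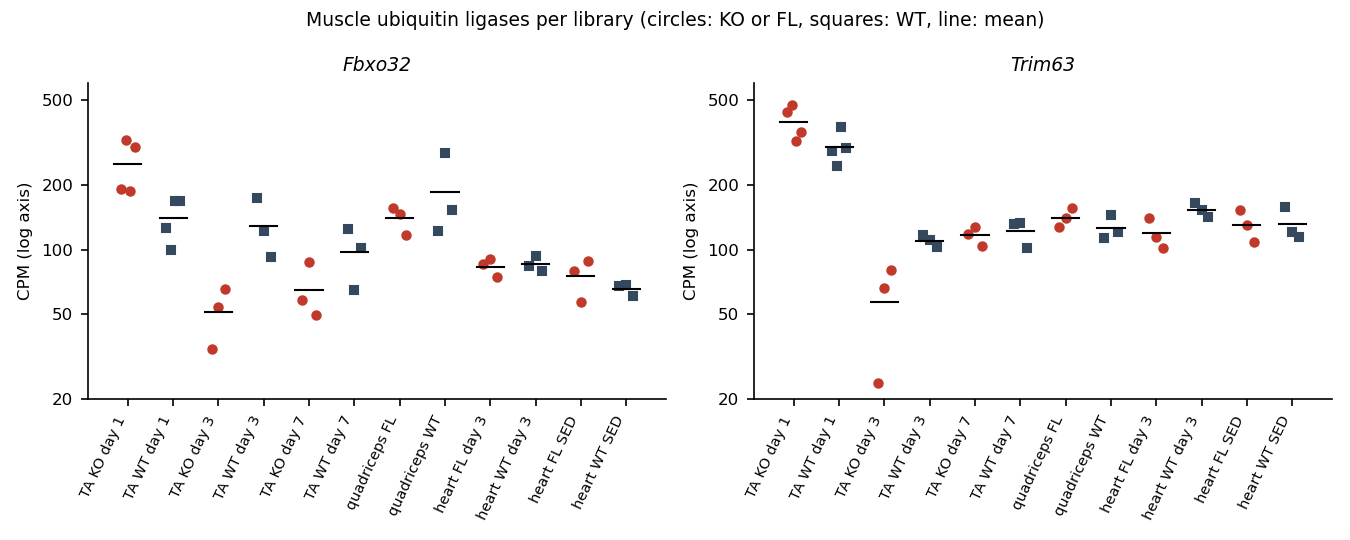
CPM of Fbxo32 and Trim63 per library on a log axis in TA, quadriceps and heart, circles for KO or FL and squares for WT, with a line at each mean. The KO libraries of TA at day 3 lie below the WT libraries of that day for both genes, and quadriceps shows no such gap. In hearts at day 3 the FL libraries lie below the WT libraries for Trim63, by a smaller margin.

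In uninjured quadriceps Fbxo32 had 157, 147 and 117 CPM in FL, against 122, 282 and 154 CPM in WT, and Trim63 127, 140.4 and 156 CPM in FL, against 113, 145 and 121 CPM in WT. Both overlapped. None of 44 members was called by edgeR, which called 0% of all genes, or by DESeq2. There 4 of 44 members and 6.5% of all genes had an unadjusted p under 0.05. Psmb8 was low, at 11.4, 11.2 and 12.4 CPM in FL, against 12.96, 13.95 and 14.1 CPM in WT, and the groups did not overlap, without a call (log2 -0.23 ± 0.16, edgeR adjusted p = 0.834). MmSCs held Fbxo32 at 1.54 to 25.2 CPM and too little Trim63 to test. In liver Fbxo32 stood at 0.959, 1.52, 1.37 and 1.57 CPM in FL, against 1.89, 2.94, 0.212 and 2.21 CPM in WT. Trim63 was too low to test there.

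Cultured MmSCs with Yoda1 for 2 h had more transcript of many structural subunits than vehicle cells. Psmb2, a beta ring subunit, had 367 and 417 CPM with Yoda1, against 186, 186 and 158 CPM with vehicle (log2 1.15 ± 0.15, edgeR adjusted p = 0.00164). Psmb1, of the same ring, had 314 and 314 CPM with Yoda1, against 163, 166 and 145 CPM with vehicle (log2 0.99 ± 0.15, edgeR adjusted p = 0.00279). Psmd7, a partner of the deubiquitinase Psmd14 in the lid, had 577 and 602 CPM with Yoda1, against 256, 318 and 287 CPM with vehicle (log2 1.04 ± 0.14, edgeR adjusted p = 0.00208). For each of these genes both Yoda1 libraries exceeded all vehicle libraries. Psmd12 (log2 0.97) and Psma7 (log2 0.94) were called too.

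In all, 19 of 43 members tested rose and 0 fell at 2 h, where 5.3% of all genes rose and 5.94% fell. The Yoda1 libraries were the shallowest of all MmSC libraries, with 3416913 and 1806248 counts, against 4667436 to 5621061 counts with vehicle, and the part of depth was not tested. The median of members was log2 0.51, against -0.03 over all genes. By role 5 of 7 alpha ring, 2 of 4 other beta ring, 4 of 6 ATPase and 5 of 14 other 19S genes rose. Among the catalytic genes the response was split. Psmb8 rose, with 41.6 and 53.2 CPM with Yoda1, against 19.4, 21.8 and 23.5 CPM with vehicle (log2 1.13 ± 0.27, edgeR adjusted p = 0.0255), and so did Psmb6, with 239 and 252 CPM with Yoda1, against 122, 144 and 133 CPM with vehicle (log2 0.89 ± 0.15, edgeR adjusted p = 0.00574). Their partners were not called: Psmb5 had 46.9 and 35.1 CPM with Yoda1, against 50.9, 61.1 and 59.4 CPM with vehicle (log2 -0.47 ± 0.24, edgeR adjusted p = 0.242), both Yoda1 libraries being below all vehicle ones. Psmb7 (log2 -0.33), Psmb9 (log2 -0.58) and Psmb10 (log2 0.38) were not called either. PA28 was split as well, Psme2 being higher with 99.3 and 92.6 CPM with Yoda1, against 45.3, 56.01 and 41.1 CPM with vehicle (log2 1.01 ± 0.21, edgeR adjusted p = 0.0139), and Psme1 uncalled with 26.8 and 21.8 CPM with Yoda1, against 45.9, 36.4 and 38.8 CPM with vehicle (log2 -0.72 ± 0.28, edgeR adjusted p = 0.121).

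The inducible share was 10.9 and 10.3% with Yoda1, against 8.4, 9.2 and 10.7% with vehicle, with overlap and a log2 ratio difference of 0.19. Psmb8 over Psmb5 alone stood at log2 -1.03 and -0.26 with Yoda1, against -2.25, -2.35 and -2.19 with vehicle, a difference of 1.62 with no overlap. Leaving out vehicle replicate 1 brought the 19 calls to 3, and vehicle replicate 3 to 4; Psmb1, Psmb2 and Psmd7 held in every such fit. DESeq2 called 20 members, and edgeR with a block for the replicate number called 4. Other parts of the pathway moved at 2 h: Pomp, which chaperones assembly of the core (log2 1.13), and Sem1, a small lid subunit (log2 0.74), rose among 9 assembly genes, and Ubb, a stress-responsive polyubiquitin gene, rose (log2 1.27), while Uba1, the main ubiquitin-activating enzyme, and Rps27a fell (log2 -0.76 and -0.61). Nfe2l1 fell (log2 -1.46 ± 0.26, edgeR adjusted p = 0.0066). Of 20 interferon genes 2 rose and 2 fell, and of 15 MHC class I genes 1 fell, H2-K1 (log2 -0.86). Over all genes at 2 h, 5.3% rose and 5.94% fell.

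In the other set, at 4 h and 6 h, Psmd3, a lid subunit, rose. It had 68.6, 57.7 and 95.9 CPM in unstimulated cells, 137, 175 and 163 CPM at 4 h and 191, 222 and 201 CPM at 6 h. Each time lay above the one before without overlap (log2 1.10 ± 0.19, edgeR adjusted p = 0.0151 at 4 h; log2 1.47 ± 0.19, edgeR adjusted p = 0.00146 at 6 h). At 2 h, in the other cells, Psmd3 had 127 and 94.2 CPM with Yoda1, against 162, 137 and 163 CPM with vehicle, which is the opposite order. At 4 h Psmd3 was the 1 member higher, and Psmd9, Psmd12 and Psmd14 were lower (log2 -0.42, -0.31 and -0.27), 4 of 43 members, where 5.71% of all genes were called, 3.58% higher and 2.12% lower. None of these 4 calls held in every fit without 1 library. The count was 1 without unstimulated replicate 1 or Yoda1 4 h replicate 3, and 2 without unstimulated replicate 2 or Yoda1 4 h replicate 1.

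At 6 h 3 of 14 constitutive core subunits and 6 of 20 cap genes rose and both PA28 genes fell. Psma7 had 163, 158 and 172 CPM in unstimulated cells, 155, 154 and 153 CPM at 4 h and 203, 201 and 196 CPM at 6 h, with 6 h above all others (log2 0.28 ± 0.06, edgeR adjusted p = 0.00199). Psmd7 (log2 0.25 ± 0.06, edgeR adjusted p = 0.00161), Psmd14 (log2 0.25) and Psmc6 (log2 0.23) rose also, and Psmb5 did so with 76.4, 68.4 and 73.2 CPM in unstimulated cells, 54.7, 69.1 and 57.7 CPM at 4 h and 80.8, 93.9 and 92.7 CPM at 6 h (log2 0.29 ± 0.10, edgeR adjusted p = 0.0404). Psme1 fell at 6 h, its values being 25.03, 26.5 and 25.5 CPM in unstimulated cells, 23.6, 25.1 and 20.7 CPM at 4 h and 15.3, 18.9 and 17.9 CPM at 6 h (log2 -0.57 ± 0.16, edgeR adjusted p = 0.0128), and so did Psme2 (log2 -0.48 ± 0.15, edgeR adjusted p = 0.0274) and Fbxo32 (log2 -0.53 ± 0.17, edgeR adjusted p = 0.0282). Counted over members, 9 of 43 rose and 3 fell, where 6.53% of all genes rose and 6.72% fell. Psma7, Psmd3 and Psmd7 held in every fit without 1 library, and the count was 6 without unstimulated replicate 1 or Yoda1 6 h replicate 2, and 7 without unstimulated replicate 3 or Yoda1 6 h replicate 3.

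The inducible subunits averaged lowest at 6 h. Psmb8 had 11.8, 10.4 and 10.3 CPM in unstimulated cells, 10.7, 9.66 and 10.9 CPM at 4 h and 6.13, 7.51 and 8.95 CPM at 6 h, and Psmb9 had 3.62, 4.31 and 4.01 CPM in unstimulated cells, 5.90, 2.23 and 3.84 CPM at 4 h and 2.53, 1.22 and 1.43 CPM at 6 h. Both lay lower at 6 h than in any unstimulated library and neither was called at 6 h (Psmb8 log2 -0.52 ± 0.24, edgeR adjusted p = 0.152; Psmb9 log2 -1.19 ± 0.44, edgeR adjusted p = 0.0684). The inducible share was 6.0, 6.7 and 6.3% in unstimulated cells, 7.9, 5.6 and 5.6% at 4 h and 3.9, 3.2 and 4.8% at 6 h. On the log2 scale the ratio at 6 h averaged -4.62, against -3.89 in unstimulated cells, a difference of -0.74 with no overlap.

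At 6 h, of 14 MHC class I genes tested 7 fell and 0 rose, with Tap2 at log2 -0.64, Tapbp (tapasin, of the peptide loading complex) at -0.47 and H2-K1 at -0.33. Of 19 interferon genes 6 fell and 0 rose, among them Irf1, an activator of Psmb9 and Tap1 (log2 -0.80), and Gbp2 (log2 -0.60). Of 12 shuttles and deubiquitinases 6 rose and 0 fell, with Ubqln4 at log2 0.62 and Rad23b, which carries ubiquitin chains to the cap, at 0.61. Over all genes at 6 h, 6.53% rose and 6.72% fell. Stromal markers fell too, 7 of 9, and their part was not tested.

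**Figure D4:**
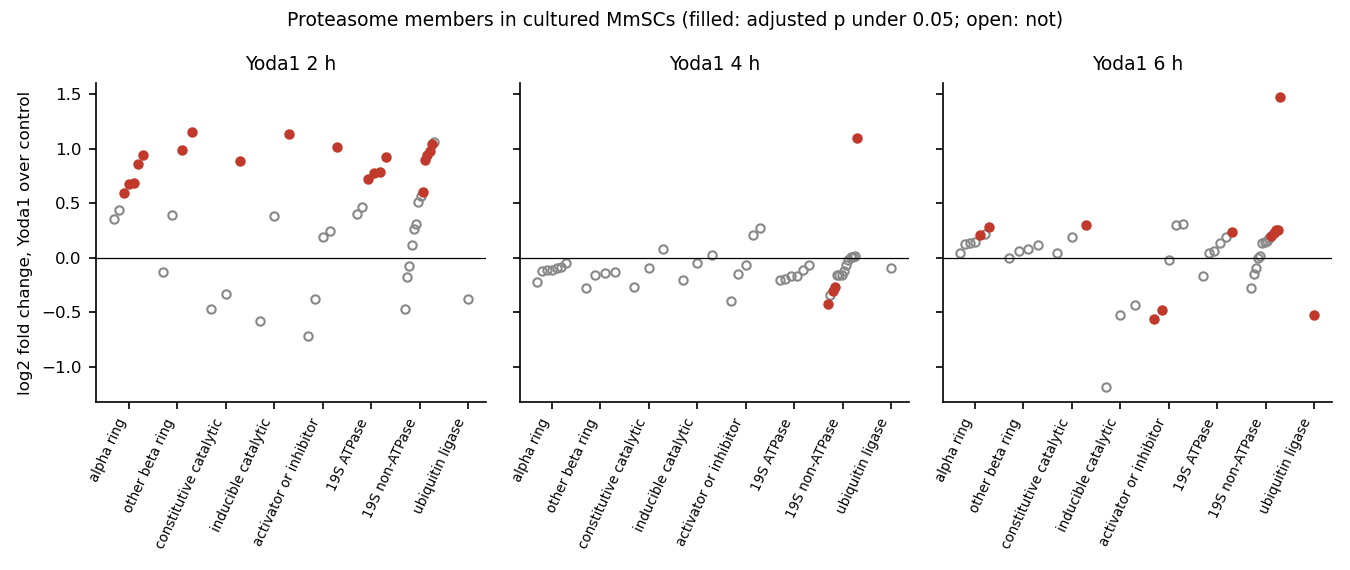
Log2 fold change of each member tested, Yoda1 over its control, in columns by role, for 2 h (against vehicle), 4 h and 6 h (against unstimulated cells); filled points had an edgeR adjusted p under 0.05. At 2 h 19 points are filled, all above 0, and at 6 h the 3 filled points below 0 are Psme1, Psme2 and Fbxo32.

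In MmSCs after AEX, 0 or 1 member was called in each genotype. The 14 constitutive core subunits had a median log2 of 0.36 in WT, 0.51 in Pdgfra-Cre Piezo1 WT and 0.13 in FL. For the inducible subunits with PA28 the median was -0.01 in WT, 0.18 in Pdgfra-Cre Piezo1 WT and -0.29 in FL. In WT mice Psmb5 had 61.96, 98.3 and 87.8 CPM after AEX, against 68.1, 66.3 and 71.01 CPM in SED, and Psmb8 73.5, 58.1 and 50.5 CPM after AEX, against 66.6, 61.1 and 44.8 CPM in SED. Both genes' groups overlapped. None of 43 members was called by edgeR or by DESeq2, where edgeR called 0.736% of all genes, 0.477% being lower. Of the members 17 of 43 had an unadjusted p under 0.05, as did 14.9% of all genes, and 37 had a positive difference, as did 50.5% of all genes (median log2 0.32 over members and 0.00 over all genes). The AEX libraries differed: without AEX replicate 1 the count was 18, all higher. That library also had the highest inducible share, 23.3%, beside 14.4 and 14.4% in the other AEX libraries, against 22.3, 20.4 and 18.3% in SED.

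In Pdgfra-Cre Piezo1 WT mice Psmd13, a lid subunit, had 104, 112 and 113 CPM after AEX, against 47.1, 71.3 and 62.5 CPM in SED. The groups stood apart, and it was the 1 of 44 members called (log2 0.86 ± 0.18, edgeR adjusted p = 0.0258), where 0.992% of all genes were called and 0.587% were called higher. The call held in 1 of the 6 fits without 1 library (without SED replicate b), and the count was 0 in the other 5; DESeq2 called 8. There 28 members had an unadjusted p under 0.05, as did 12.3% of all genes, and 40 of 44 a positive difference, as did 48.8% of all genes (median log2 0.45 over members and -0.01 over all genes). The inducible subunits were not called, Psmb8 having 38.7, 34.8 and 38.99 CPM after AEX, against 44.9, 33.2 and 38.3 CPM in SED (log2 -0.05), and Psmb9 5.65, 5.22 and 6.24 CPM after AEX, against 7.13, 10.6 and 8.98 CPM in SED (log2 -0.64). Psmb5 had 77.4, 61.1 and 86.2 CPM after AEX, against 34.3, 55.5 and 55.3 CPM in SED (log2 0.63 ± 0.20, edgeR adjusted p = 0.164). The inducible share was 11.3, 10.4 and 10.8% after AEX, against 19.2, 12.4 and 14.95% in SED, with no overlap and a log2 ratio difference of -0.58.

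In FL mice none of 44 members was called after AEX by edgeR (0.162% of all genes; 5 members and 7.93% of all genes at an unadjusted p under 0.05), and DESeq2 called 1. Psmd13 had 69.8, 91.1 and 90.1 CPM after AEX, against 79.1, 63.1 and 66.5 CPM in SED, with overlap, and the members' median log2 was 0.13. The inducible share was 15.2, 10.1 and 11.9% after AEX, against 15.2, 20.9 and 15.6% in SED, with overlap and a log2 ratio difference of -0.56. Whether AEX acted differently by genotype was tested as an interaction, which called 0 of 44 members by edgeR and by DESeq2 (0% of all genes). There 3 of 44 members and 5.96% of all genes had an unadjusted p under 0.05. The median interaction was log2 -0.31, with 39 of 44 negative, as were 50.3% of all genes. Members were measured in the same libraries, so such counts of signs, here and in the other AEX comparisons, are not counts of separate observations. Between FL and WT directly, edgeR called 0 of 44 in SED (0.00675% of all genes) and DESeq2 called 1. After AEX edgeR called 0 of 44 (0% of all genes) and DESeq2 called 0. An unadjusted p under 0.05 went with 2 members and 7.38% of all genes in SED. After AEX it went with 4 members and 5.49% of all genes. Leaving out FL SED replicate a gave 1 call in FL after AEX (Psmd3) and 1 between FL and WT in SED. These comparisons share libraries and are not independent.

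After exercise training no member differed from SED by test. None of 43 was called by edgeR or DESeq2, where edgeR called 0.484% of all genes. An unadjusted p under 0.05 went with 2 of 43 members, beside 12.3% of all genes. Differences were positive in 20 members and negative in 23 (48.2% and 51.8% of all genes), with a median log2 of -0.02. Psmb8 had 31.7, 42.3 and 34.9 CPM after EXT, against 45.4, 37.98 and 40.8 CPM in SED, and the inducible shares overlapped at 16.0, 17.6 and 18.8% after EXT, against 17.5, 16.6 and 17.8% in SED.

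On day 1 after CTX, FL and WT MmSCs did not differ in any of 43 members by edgeR or DESeq2, where edgeR called 1.79% of all genes. An unadjusted p under 0.05 went with 3 of 43 members, beside 13.6% of all genes. Psmb8 had 53.1, 58.6 and 70.2 CPM in FL, against 73.5, 62.6 and 76.8 CPM in WT (log2 -0.23 ± 0.12, edgeR adjusted p = 0.42), and Psmb9 12.6, 10.5 and 18 CPM in FL, against 16.6, 14.9 and 13.1 CPM in WT (log2 -0.12 ± 0.20, edgeR adjusted p = 0.863). Both overlapped. In the same libraries 4 of 20 interferon genes were lower in FL and 0 higher, among them Isg15 (log2 -1.56 ± 0.21, edgeR adjusted p = 0.00157). Of 15 MHC class I genes 3 were lower, Tap1, B2m and Tapbp (log2 -0.56, -0.40 and -0.32).

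In hearts 3 days after CTX, FL hearts had slightly more of several core and cap transcripts than WT hearts. Psma7 had 224, 198 and 219 CPM in FL, against 167, 163 and 159 CPM in WT (log2 0.39 ± 0.08, edgeR adjusted p = 0.0231). The ATPase gene Psmc3 had 416, 358 and 409.7 CPM in FL, against 303, 289.6 and 300.04 CPM in WT (log2 0.41 ± 0.08, edgeR adjusted p = 0.0227), and Psmc1 was alike (log2 0.43). Psmb5 had 138, 124 and 127 CPM in FL, against 106, 106 and 97.9 CPM in WT (log2 0.33 ± 0.08, edgeR adjusted p = 0.0443). For these genes every FL library exceeded every WT library. In all 8 of 45 members rose and 0 fell, where 1.58% of all genes rose, and the median of members was log2 0.27. DESeq2 called 17. None of the 8 calls held in every fit without 1 library: the count was 0 without FL replicate 3 or without WT replicate 2, 3 or 4, and 16 without FL replicate 2. Without FL replicate 1, 7 members were called higher in FL and Psmd3, Psmd11 and Trim63 were called lower.

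The inducible subunits were high in 1 of the 3 FL hearts. Psmb8 had 44.7, 42.6 and 109.9 CPM in FL, against 31.4, 29.9 and 42.6 CPM in WT. Psmb9 had 23.1, 15.8 and 52.6 CPM in FL, against 14.4, 12.4 and 20.2 CPM in WT, and Psmb10 79.1, 59.3 and 127 CPM in FL, against 56.5, 55.2 and 51.8 CPM in WT. FL replicate 3 gave the highest value each time, and the other FL libraries lay closer to WT. None was called (Psmb8 log2 0.92 ± 0.29, edgeR adjusted p = 0.0878; Psmb9 log2 0.96, edgeR adjusted p = 0.104; Psmb10 log2 0.70, edgeR adjusted p = 0.0638). DESeq2 called all 3 (adjusted p = 0.0224 for Psmb8, 0.0408 for Psmb9 and 0.0212 for Psmb10). Over all alternatives the adjusted p ran from 1.10e-06 to 0.359 for Psmb8, from 9.34e-05 to 0.531 for Psmb9 and from 0.000138 to 0.246 for Psmb10, lowest by edgeR with no filter on low counts and highest without FL replicate 3. Without that library the log2 differences became 0.33 for Psmb8, 0.31 for Psmb9 and 0.34 for Psmb10. Its inducible share was 25.5%, beside 14.1 and 12.99% in the other FL hearts, against 12.5, 12.3 and 14.5% in WT hearts. The same library had the highest summed levels of MHC class I genes (3973 CPM, beside 2487 and 2268 CPM) and of white blood cell markers (640 CPM, beside 500 and 403 CPM, against 369 to 470 CPM in WT). The part of white blood cells was not tested.

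**Figure D5:**
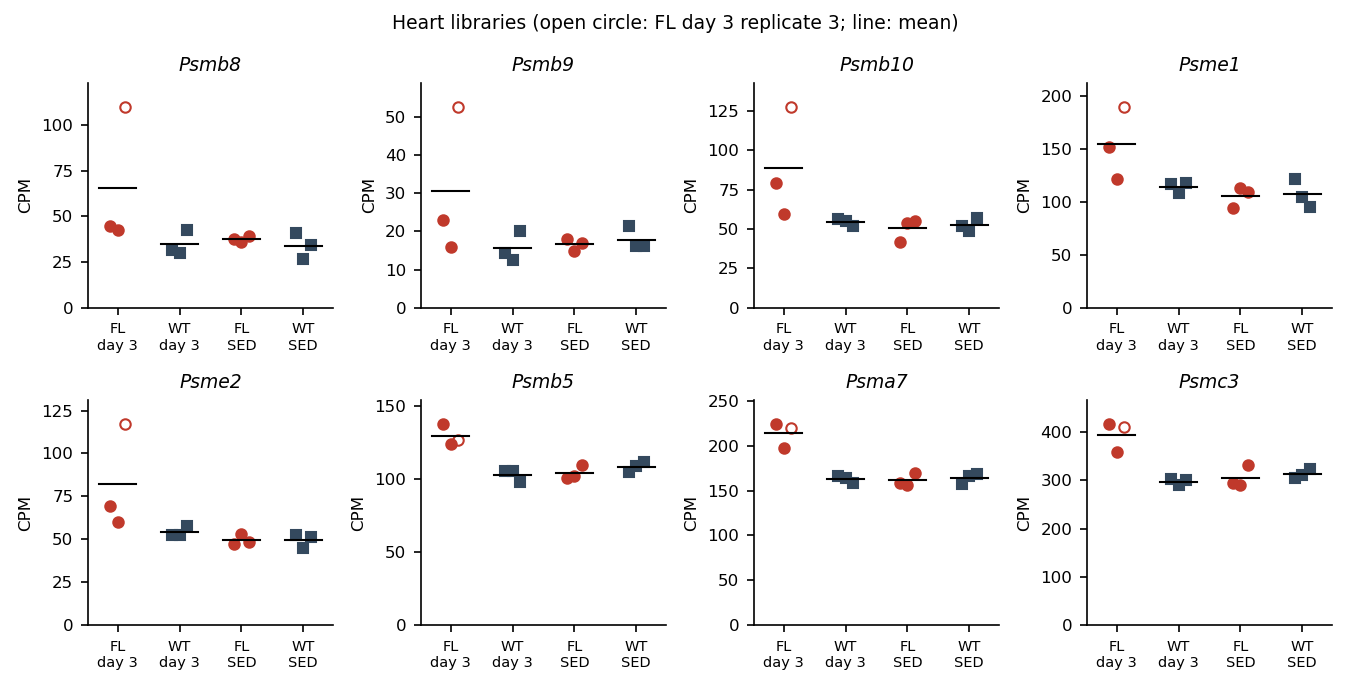
CPM per library in hearts 3 days after CTX and in SED hearts, circles for FL and squares for WT, with a line at each mean and FL day 3 replicate 3 as an open circle. That library is apart in Psmb8, Psmb9, Psmb10 and Psme2, while in Psmb5, Psma7 and Psmc3 all 3 FL day 3 libraries lie above the WT ones.

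Against SED hearts of their own genotype, 9 of 45 members rose and 0 fell in FL hearts at day 3, where 2.05% of all genes rose. In WT hearts 0 of 45 were called by edgeR (0.103% of all genes, 0.038% being higher) and 0 by DESeq2. There 1 member and 5.37% of all genes had an unadjusted p under 0.05. Day 3 and SED hearts came from separate cohorts, so cohort and injury cannot be told apart. Psmb10, Psme1 and Psme2 were among the 9 in FL (log2 0.81, 0.55 and 0.74). Without FL day 3 replicate 3 only Psmc1 remained, and without FL SED replicate 2 or 3 the count was 0. Without FL day 3 replicate 1, 7 members were higher and Psmd3 was lower. Trim63 and Fbxo32 were not called in hearts in any of these comparisons. At day 3 Trim63 had 141, 114 and 102 CPM in FL, against 164, 153 and 142 CPM in WT. Every FL library lay below every WT library, without a call (log2 -0.36 ± 0.15, edgeR adjusted p = 0.171).

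Between FL and WT no member was called by edgeR or DESeq2 in SED hearts (0 of 45) or in SED livers (0 of 44). In both tissues edgeR called 0% of all genes. An unadjusted p under 0.05 went with 0 members in both, beside 4.22% of all genes in hearts and 3.61% in livers. In liver Psmb8 had 55.4, 73.2, 72.5 and 78.01 CPM in FL, against 76.3, 80.3, 53.6 and 72.6 CPM in WT, and the groups overlapped. The tissue-restricted Psma8 (a testis subunit) and Psmb11 (the thymus catalytic subunit) did not exceed 1.91 CPM in any library.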

How the data were processed

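RNA was measured in 90 mouse libraries, each of 1000 sorted MmSCs or 2 ng of whole-tissue RNA. The authors' deposited values were whole-number counts per gene symbol. The submitters' processing notes name STAR 2.7.3a, mm10 and featureCounts. For featureCounts the version, annotation, strand setting and treatment of multiply matching reads were not known here. Reads of Psme2 and its near copy Psme2b (2166 counts in all libraries), or of Psma5 and its pseudogene, may therefore be split or shared.

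The libraries were fitted in 10 separate sets with edgeR 4.0.16 (R 4.3.3), using TMM scaling and filterByExpr (minimum count 10). The robust quasi-likelihood test was used, with Benjamini-Hochberg adjustment over all genes. Hearts of day 3 and SED shared a set. Levels are CPM with TMM factors, comparable within a set. Counts per kb used the principal transcript's length (GENCODE M21), and the ratio of catalytic subunits has no p-value, being a score over chosen members. Names tied 78 count columns to a sample and 12 to a group only, and 0 were unused. Replicates differed by a chi-square per gene of at least 2.75, more than sampling noise. Alternatives were DESeq2 1.42.0, RLE scaling, leaving out the low-count filter, leaving out each library, and a block for the replicate number. The tests were checked on simulated counts, in which few genes, drawn at any level, were changed. In the data themselves 11.2% of all genes were called for Yoda1 at 2 h. The shares recovered therefore need not be those of the members. Of changes set at log2 1, 18.95% were called for Yoda1 at 2 h, 43.75% for KO against WT at day 3 and 48.48% for hearts at day 3. The share was 48.45% for AEX of WT and 69% for Yoda1 at 6 h. Changes of that size or smaller can therefore go uncalled.

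Members, gene lists and tests were chosen with earlier results of these data known. Always named were the catalytic subunits, activators, Psmf1, Psma8, Psmb11 and the ligases; up to 5 other called members per direction and up to 4 called genes of a list, by fold, were added. MHC class I, interferon, assembly, shuttle, ubiquitin, regulator and atrophy lists were used, with markers of 8 cell types. Of the 157 list genes, 156 were found.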

Additional observations from a re-analysis of the deposited data

Results flagged for a closer look

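TA at day 1 and liver had 4 libraries a group, and there the catalytic subunits, activators, inhibitor, ligases and ratio gave 54 sets of values. Of these 6 had 1 library apart from the rest, where chance alone gives about 1 in 20. Among WT TA libraries at day 1, Psmb9 measured 13.4, 14.3, 14.7 and 23.8 CPM (gap over range 0.8755), Psme1 46.9, 61.5, 61.5 and 61.7 CPM (0.9862), Psme2 57.1, 59.0, 59.5 and 72.8 CPM (0.8437) and Psmb6 314.5, 354.9, 359.3 and 360.5 CPM (0.8794). Replicate 2 was the high library for Psmb9 and Psme2, replicate 3 the low one for Psme1 and replicate 4 the low one for Psmb6. In liver, Psmb5 measured 79.0, 80.8, 82.1 and 100.5 CPM in FL (0.8554), and Psmb10 30.3, 39.3, 40.7 and 40.8 CPM in WT (0.8624).

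The difference between KO and WT TA muscle in Fbxo32 changed with the day after injury (edgeR adjusted p of the interaction = 0.00774). All 4 KO libraries lay above all 4 WT libraries at day 1, and all 3 KO libraries below all 3 WT libraries at day 3.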

How the results depend on the processing

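Of 133 calls of a member, DESeq2 kept 132, RLE scaling 127, no filter on low counts 97 and the replicate block, where it could be fitted, 104 (28 lost). Over all fits without 1 library, 594 calls were kept and 237 lost. Counts of members called moved by over 1.5 times with DESeq2 in AEX of Pdgfra-Cre WT (8), AEX of FL (1), FL against WT in SED MmSCs (1), KO against WT in TA at day 3 (4), genotype by day (3), FL against WT hearts at day 3 (17) and FL hearts against SED (16). With RLE scaling the hearts at day 3 had 4. With no filter the counts were 3 in AEX of Pdgfra-Cre WT, 1 in AEX of FL, 1 in FL against WT in SED MmSCs, 4 for Yoda1 at 6 h and 2 for genotype by day; the cause was not tested. Over fits that left out 1 library, counts ran from 0 to 18 for AEX of WT, 0 to 1 for AEX of Pdgfra-Cre WT, 0 to 1 for AEX of FL, 0 to 1 for FL against WT in SED MmSCs, 3 to 23 for Yoda1 at 2 h, 1 to 5 at 4 h and 6 to 8 at 6 h. They ran from 0 to 6 for KO against WT at day 3, 8 to 16 for WT day 3 against day 1, 1 to 4 for genotype by day, 0 to 16 for hearts at day 3 and 0 to 11 for FL hearts against SED. Taken as Psmb8 over Psmb5 alone, the log2 ratio moved by more than the replicate SD in 9 comparisons, the cause not being tested: -1.92 for WT and -2.29 for KO from day 3 to day 7, 1.31 for KO from day 1 to day 3, 0.62 for KO against WT at day 3 and 0.25 at day 7, 1.62 for Yoda1 at 2 h and 0.22 at 4 h, -0.20 for FL against WT MmSCs after CTX and 0.22 in SED hearts. The sign changed at 4 h and after CTX, where the ratio of all 6 genes differed by -0.02 and 0.03. Deviations of libraries of the same number correlated at -0.16 to 0.20. Some sets had as few as 2 such pairs, so these values cannot settle whether numbers pair the libraries. With the number as a block Yoda1 at 2 h had 4 calls, hearts at day 3 had 11 and FL hearts against SED 13. No paired analysis was possible for MmSCs with both genotypes and AEX because their columns carry no number tied to a sample. In MmSCs, Trim63 had too few counts to test.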

Other observations

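The inducible share of catalytic transcripts in sedentary MmSCs of different cohorts was not tested between cohorts. It averaged 17.2 ± 3.19% in FL SED, 15.5 ± 3.42% in Pdgfra-Cre Piezo1 WT SED, 20.3 ± 2.02% in WT SED of the AEX set and 17.3 ± 0.675% in WT SED of the EXT set (SD, n = 3 each). Controls in culture averaged 9.44 ± 1.16% for vehicle of the 2 h set and 6.34 ± 0.372% for unstimulated cells of the 4 h and 6 h set (SD, n = 3 each).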
